A study of Homo sapiens with 6 samples.

Results

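The genes described here are the LINC-named long intergenic noncoding RNAs that T98G cells express at a measurable level. They were selected on their level alone, as every gene whose symbol is LINC followed by digits and whose mean spike-in normalized read count over the 6 libraries was at least 50. LINC00657, which the selection leaves out, has 0 rows under that symbol. Of the 435 LINC-named genes in the normalized table, 116 met this bar and 319 did not, among 23026 genes in all. No fold change entered the selection, but the bar is a mean over both groups. For 12 members only the shControl mean reached it and for 5 only the shDYRK1A mean did, so these 17 were selected through the group in which they are higher. The levels themselves are a description.

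T98G is an established human glioblastoma line. Both groups carried a lentivirus and were selected with puromycin: the 3 shControl libraries (1A, 1B and 1C) come from cells that received a control short hairpin RNA, and the 3 shDYRK1A libraries (1A, 1B and 1C) from cells that received a hairpin against the kinase DYRK1A. Drosophila cells (Kc167) had been spiked into every T98G sample in a set amount, which makes the fly reads an external scale. The labels give 1 hairpin name per condition and do not say whether the libraries of a group came from separate cultures, so p-values measure the spread between these libraries, which may be technical.

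Intergenic noncoding RNAs are made by RNA polymerase II from stretches between protein-coding genes, and many are capped, spliced and polyadenylated like messenger RNAs. They tend to be present at lower levels than messenger RNAs, many stay in the nucleus, and the nuclear RNA exosome with its adaptor complexes degrades a large share of such transcripts soon after synthesis. The LINC symbol is a placeholder for a gene of no agreed function, and some holders have since been found to encode small proteins or to carry a microRNA. DYRK1A phosphorylates many proteins and is also found at gene promoters in the nucleus.

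The start regions of 6 genes whose RNA moved after DYRK1A depletion are shown because they differ in base composition and in the elements they hold. Each window runs from 250 bases before to 50 bases after the start given by RefSeq (GRCh38.p14), 5′ to 3′ on the gene's own strand. Capitals mark letters that match, on either strand, TATAAA (the TATA box), CCAAT (the CCAAT box), GGGCGG (the GC box), CCGGAAGT (an ETS site), TGANTCA (an AP-1 site) or TGACGTCA (a cyclic AMP response element). The first 3 genes were lower in shDYRK1A cells and the last 3 were higher relative to the other human genes.
LINC00346, chr13:110870259-110870558, minus strand: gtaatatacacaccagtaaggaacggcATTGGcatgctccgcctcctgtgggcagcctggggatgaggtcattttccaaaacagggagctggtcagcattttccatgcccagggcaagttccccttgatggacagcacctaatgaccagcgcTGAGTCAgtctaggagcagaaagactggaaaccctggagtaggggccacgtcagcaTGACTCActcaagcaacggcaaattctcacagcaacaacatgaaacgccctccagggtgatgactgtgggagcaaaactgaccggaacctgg
LINC01444, chr18:14970419-14970718, minus strand: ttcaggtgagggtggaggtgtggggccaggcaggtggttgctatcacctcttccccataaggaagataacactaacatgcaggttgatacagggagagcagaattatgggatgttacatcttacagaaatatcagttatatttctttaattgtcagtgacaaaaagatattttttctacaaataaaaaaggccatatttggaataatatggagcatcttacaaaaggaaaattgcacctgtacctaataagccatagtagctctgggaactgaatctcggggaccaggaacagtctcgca
LINC00235, chr16:527358-527657, minus strand: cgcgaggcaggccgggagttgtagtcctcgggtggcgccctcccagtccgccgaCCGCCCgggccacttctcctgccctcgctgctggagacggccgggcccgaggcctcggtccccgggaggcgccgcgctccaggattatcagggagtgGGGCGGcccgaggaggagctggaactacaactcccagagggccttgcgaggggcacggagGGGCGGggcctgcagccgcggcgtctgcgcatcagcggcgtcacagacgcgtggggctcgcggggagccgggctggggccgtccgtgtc
LINC01144, chr1:45303660-45303959, plus strand: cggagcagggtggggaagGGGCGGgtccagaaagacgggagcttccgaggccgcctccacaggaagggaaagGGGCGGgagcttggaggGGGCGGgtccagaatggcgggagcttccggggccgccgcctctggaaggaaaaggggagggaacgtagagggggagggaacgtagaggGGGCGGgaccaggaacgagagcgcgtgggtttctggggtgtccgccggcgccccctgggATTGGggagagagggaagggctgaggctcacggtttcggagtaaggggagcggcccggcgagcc
LINC01003, chr7:152463874-152464173, plus strand: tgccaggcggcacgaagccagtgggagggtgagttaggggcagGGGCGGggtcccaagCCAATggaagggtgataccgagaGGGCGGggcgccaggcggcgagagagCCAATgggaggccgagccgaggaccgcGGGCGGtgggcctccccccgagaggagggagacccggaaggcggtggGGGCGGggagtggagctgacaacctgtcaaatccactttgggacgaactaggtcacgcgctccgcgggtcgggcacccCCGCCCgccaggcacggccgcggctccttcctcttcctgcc
LINC00461, chr5:88690992-88691291, minus strand: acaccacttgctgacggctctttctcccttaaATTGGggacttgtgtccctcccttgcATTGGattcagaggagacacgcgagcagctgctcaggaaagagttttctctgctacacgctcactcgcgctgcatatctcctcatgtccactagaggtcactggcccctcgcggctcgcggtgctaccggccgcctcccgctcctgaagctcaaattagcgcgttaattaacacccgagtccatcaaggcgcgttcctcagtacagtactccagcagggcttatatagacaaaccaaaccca

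Since these windows were picked to differ, the contrasts between them are a description only. LINC00235, LINC01003 and LINC01144 have GC-rich windows (75.3%, 71.7% and 70.0% G and C) with 3, 5 and 4 GC boxes, whereas LINC01444 has 40.7% G and C and none of the letters searched. LINC00346 holds 2 AP-1 matches, the only such pair among these 6. The window of LINC01003 starts from a RefSeq start that lies 338 bases from the start in the deposited table. Of the 116 members, 75 had a promoter in the RefSeq table within 2000 bases of their own start on the same strand. Among these 75, the GC box was found in 50.7%, CCAAT in 45.3%, TATAAA in 14.7%, the ETS site in 9.33%, the AP-1 site in 6.67% and TGACGTCA in 2.67%. Among all 35116 promoters of that table the shares were 44.95%, 34.6%, 11.5%, 4.14%, 7.71% and 1.85%. The 10-base palindrome TCTCGCGAGA, the most frequent match in the study's own list of promoters for the element associated with DYRK1A, was found in 0 of the 75 windows and in 149 of 35116 (0.424%). A match describes letters and not a bound factor.

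Total gene counts ran from 33708297 to 42154438 per library. Unmapped reads made up 8.44% to 11.9% in 5 libraries and 15.6% in shDYRK1A 1B, which is therefore left out as a check below. DYRK1A itself, the target of the hairpin, had normalized counts of 2227, 2234 and 1895 in shControl and 1482, 1056 and 1285 in shDYRK1A. Its log2 fold change (log2FC, shDYRK1A over shControl) was -0.73 ± 0.15 (SE) on the spike-in scale. Set against the other human genes, by the second scaling described below, it was -0.35 ± 0.06. Of the markers of an astroglial tumour line, VIM, CD44, EGFR and SOX9 were present in every library, while GFAP, S100B and SOX2 had at most 4 raw counts in any of them. OLIG2 and NES were low, with means of 59.6 and 71.7 normalized counts. In normalized counts VIM, EGFR, SOX9, OLIG2 and NES were lower in every shDYRK1A library than in every shControl one, and CD44 overlapped. Falls were common on this scale, where 55.0% of the 13465 genes tested below fell and the median log2FC was -0.39. How many of all genes lacked overlap was not counted. The leukocyte markers PTPRC, CD68 and AIF1 had at most 9 raw counts and the endothelial markers PECAM1 and VWF at most 22. Of the neuronal markers, RBFOX3 had at most 1 raw count and SYT1 at most 36, but SNAP25 had 514, 537 and 394 normalized counts in shControl and 210, 175 and 202 in shDYRK1A, without overlap. The epithelial marker EPCAM had 27 to 65 raw counts. The part of these in the results was not tested.

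DYRK1A depletion was followed by a lower level of a minority of the LINC-named RNAs per cell equivalent, and by a higher share of the human RNA for about as many. On the spike-in scale, 31 of the 116 members fell and 3 rose at an adjusted p below 0.05 (edgeR's quasi-likelihood test, Benjamini-Hochberg over 13465 genes at the same bar of 50). Across all 13465 genes 55.0% fell and 1.72% rose in the same test. The 31 became 19 without shControl 1A, 18 without shControl 1B and 20 without shDYRK1A 1C, and the 3 became 1 without shControl 1A. Of the 31, 8 were selected through the shControl group alone. With trimmed mean of M values (TMM) scaling, which sets each gene against the other human genes and discards the shift they share, 11 members fell and 38 rose, where the shares over all genes were 25.2% and 24.1%. No member was lower in one fit and higher in the other. The 2 scales differ by a shift of 0.39 log2 units in the median gene. In bulk RNA of this kind, fewer cells carrying a transcript and less of it per cell cannot be told apart.

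The median log2FC of the members was -0.18 with spike-in scaling (quartiles -0.41 and 0.04), and the median of all genes tested was -0.39. With TMM scaling the median of the members was 0.20 (quartiles -0.02 and 0.43) and that of all genes 0.0033. The median member therefore changed sign with the scaling, and sat about the same distance above the median gene in both. The 2 fits use the same counts and differ only in 1 scale per library, so the second distance is not independent of the first. A call that adds a log2FC beyond 0.7 in size was met by 16 members downward and 1 upward on the spike-in scale, against 14.8% and 0.795% of all genes. On the TMM scale it was met by 5 downward and 8 upward, against 2.44% and 2.76%. Of the calls downward, 7 of 16 and 3 of 5 were members selected through the shControl group alone, and 1 of the 8 upward came in through the shDYRK1A group alone, so these counts are no support for a change of the members as a set. Without shDYRK1A 1B, the spike-in fit gave 23 lower and 4 higher members with a median of -0.10, and the TMM fit 10 lower and 37 higher with a median of 0.20.

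**Figure D1:**
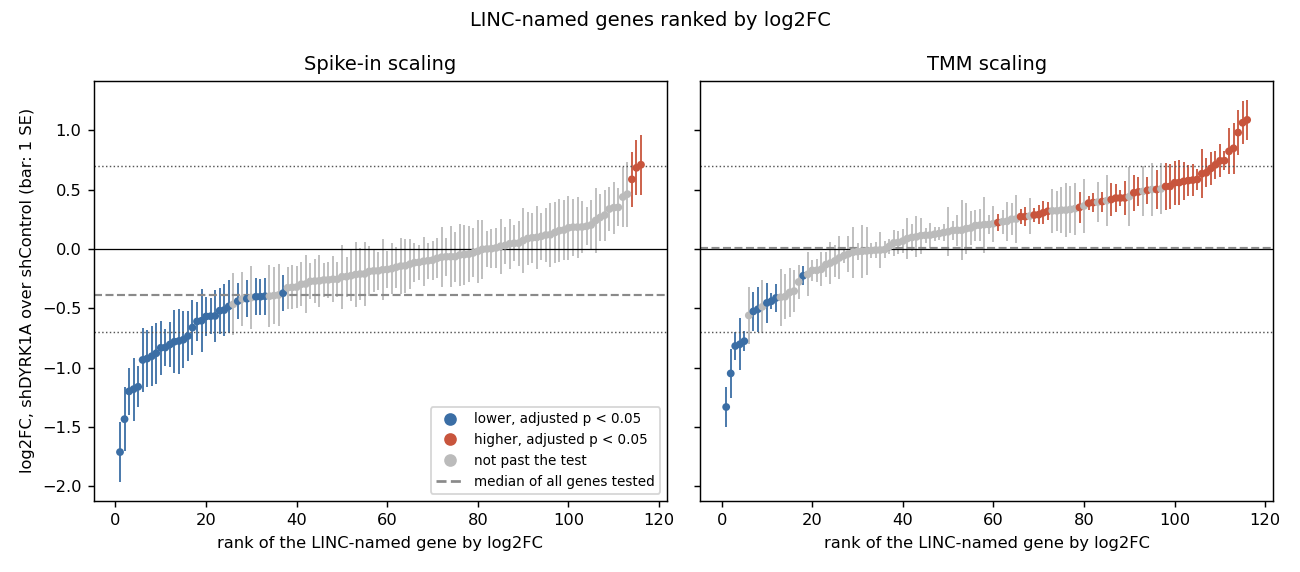
Log2FC of the 116 LINC-named genes in rank order, with spike-in scaling on the left and TMM scaling on the right; points are estimates, bars 1 SE, the dashed line is the median of the 13465 genes tested and dotted lines stand at 0.7 in either direction. Most members lie above the dashed line in both panels, 31 are lower and 3 higher on the left, and 11 are lower and 38 higher on the right.

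Other noncoding classes at the same bar were placed side by side. The 662 other long noncoding genes had a median log2FC of -0.20 with spike-in and 0.18 with TMM scaling. The 240 genes with an antisense name (a symbol ending in AS and a number) had -0.20 and 0.19, and the 11698 protein-coding genes had -0.40 and -0.01. On the TMM scale 32.8% of the members rose and 9.48% fell, beside 29.9% and 8.31% of the other long noncoding genes, 36.7% and 6.25% of the antisense-named genes and 24.1% and 27.9% of the protein-coding genes. The LINC-named genes thus had values near those of the other noncoding classes, and their difference from them was not tested. Calls beyond 0.7 downward on the TMM scale made up 4.31% of the members, 1.66% of the other long noncoding genes and 0.417% of the antisense-named genes. Upward they made up 6.90%, 11.6% and 7.5%. The shares over all genes were 2.44% downward and 2.76% upward. Of the 5 members called downward, 3 were selected through the shControl group alone, so the 4.31% is no support for an excess of falls.

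**Figure D2:**
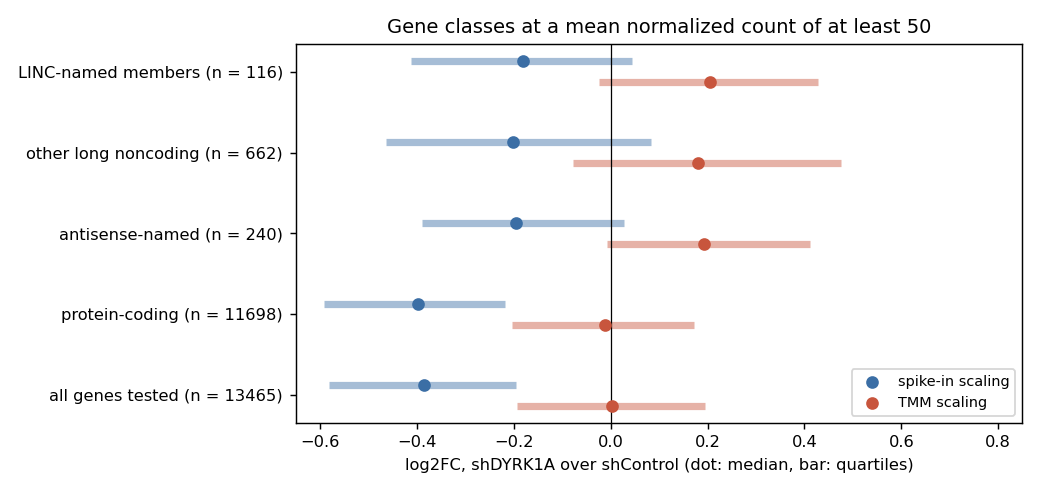
Median (dot) and quartiles (bar) of the log2FC in each class of genes with a mean normalized count of at least 50, in blue for spike-in and in red for TMM scaling. The LINC-named genes have medians of -0.18 and 0.20, close to the other 2 noncoding classes, and the protein-coding genes -0.40 and -0.01.

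Levels were low. The member means ran from 50.2 to 1669 normalized counts, with a median of 141, whereas the protein-coding genes at the same bar had a median of 1333. Per kilobase of exon, the median was 54.1 normalized counts for members and 245 for protein-coding genes. The share of genes that passed the test depended on their level. Among the 42 members with means of 50 to 100, 26.2% fell on the spike-in scale, beside 25.4% of all genes in that range. For means of 100 to 300 the shares were 23.1% of 39 members and 37.4% of all genes, and for 300 to 2000 they were 31.4% of 35 members and 58.5% of all genes. The medians differed in the same direction in each range: -0.16, -0.14 and -0.23 for members and -0.28, -0.33 and -0.40 for all genes. Upward TMM calls beyond 0.7 made up 7.14%, 10.3% and 2.86% of members in these ranges, and 9.45%, 6.29% and 1.73% of all genes. Downward TMM calls made up 7.14%, 2.56% and 2.86% of members, and 3.62%, 3.12% and 2.65% of all genes.

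**Figure D3:**
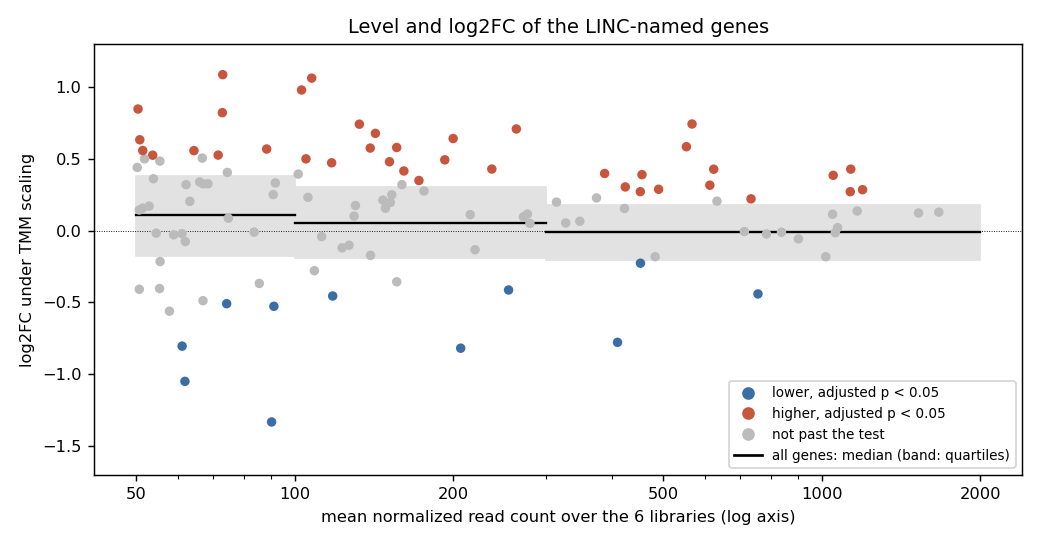
Log2FC with TMM scaling against the mean normalized count of each LINC-named gene (log axis); black lines and grey bands are the median and quartiles of all genes in the ranges 50 to 100, 100 to 300 and 300 to 2000. Members that rose are spread over the whole range of levels, and the 4 with the lowest log2FC have means below 300.

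Summed over all members, the RNA took 840, 848 and 838 counts per 1000000 (CPM) of human gene counts in the shControl libraries, in the order 1A, 1B and 1C, which all lists of values follow. It took 993, 940 and 942 CPM in those with shDYRK1A. All 3 depleted libraries were above all 3 control libraries, by 0.19 log2 units between the means. On the spike-in scale the order was the other way, with summed normalized counts of 38182 ± 3965 in shControl and of 32376 ± 3612 after depletion (both SD, n = 3), and the libraries overlapped. The 10 most abundant members held 34.2% of the summed level.

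The largest falls were in RNAs that were lower in both fits. LINC00536 had 152, 134 and 129 normalized counts in the shControl libraries and 51.0, 35.2 and 40.4 in the shDYRK1A libraries. The groups were far apart, and its shDYRK1A mean of 42.2 lay below the bar, which it met through shControl. Its log2FC was -1.71 ± 0.25 (SE) with spike-in scaling and -1.33 ± 0.17 with TMM scaling (edgeR, adjusted p 2.79e-10 and 2.46e-05). This RNA of 14 exons in its longest transcript lies 140837 bases from TRPS1, a zinc finger repressor gene that fell by 0.69 with spike-in scaling (adjusted p 0.00924) and had a TMM log2FC of -0.32 (adjusted p 0.149). LINC01484 had 90.1, 106 and 75.9 normalized counts in shControl and 38.8, 22.2 and 38.7 in shDYRK1A. It too met the bar through shControl, with a shDYRK1A mean of 33.2. Every depleted library was below every control one, and its log2FC was -1.43 ± 0.27 with spike-in and -1.05 ± 0.21 with TMM scaling (adjusted p 1.06e-06 and 0.000878). Its nearest protein-coding gene, BOD1, at 90953 bases, fell by 0.65 with spike-in and by 0.25 with TMM scaling on the log2 scale (adjusted p 2.53e-05 and 0.00262).

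LINC01444, the gene with the AT-rich start region, had 319, 283 and 262 normalized counts in shControl and 150, 116 and 110 in shDYRK1A. Its 3 depleted libraries lay below all controls, and its log2FC was -1.20 ± 0.20 with spike-in and -0.82 ± 0.12 with TMM scaling (adjusted p 4.06e-08 and 0.000102). LINC00346, a single-exon RNA with 2 AP-1 matches before its start, had 606, 590 and 503 normalized counts in shControl and 295, 212 and 252 in shDYRK1A. It was the most abundant of the 5 called lower in both fits, and it fell by 1.16 ± 0.17 with spike-in and by 0.78 ± 0.08 with TMM scaling on the log2 scale (adjusted p 5.95e-10 and 7.45e-06). ANKRD10, 8288 bases away on the same strand, had log2FC of -0.26 and 0.12 (adjusted p 0.0921 and 0.0515). LINC00235 had 80.3, 91.9 and 82.8 normalized counts in shControl and 41.6, 23.2 and 46.9 in shDYRK1A. Its groups did not overlap, and it met the bar through shControl (shDYRK1A mean 37.2). Its log2FC was -1.18 ± 0.26 with spike-in and -0.80 ± 0.22 with TMM scaling (adjusted p 5.25e-05 and 0.00802).

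These 5 calls held in each spike-in fit that left out 1 library. In the TMM fits they held too, apart from LINC00235 without shDYRK1A 1B, when its log2FC was -0.62 (adjusted p 0.0267). None of the 5 shares an exonic base with another gene on its own strand in GENCODE v29.

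**Figure D4:**
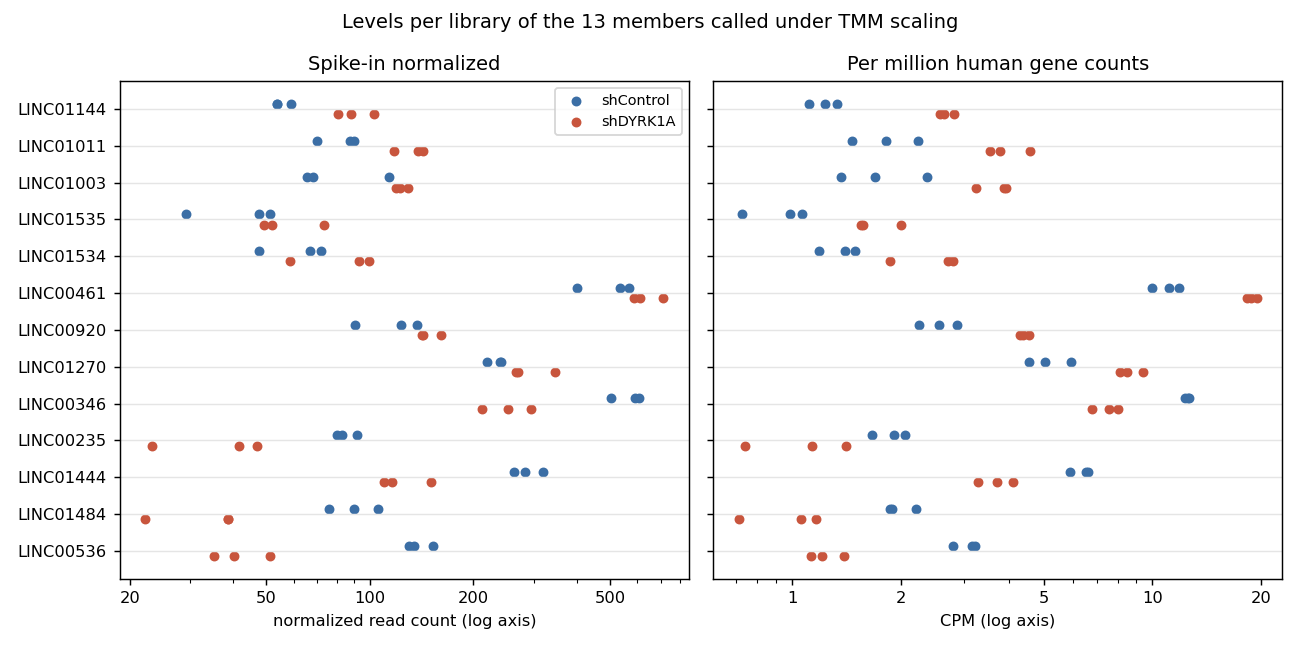
Level in each library of the 13 members called with TMM scaling, as spike-in normalized read count (left) and as CPM of human gene counts (right), both on log axes; blue points are the 3 shControl and red points the 3 shDYRK1A libraries. In CPM the groups of all 13 genes are apart, and on the spike-in scale those of LINC01534 and LINC01535 overlap. The 13 were selected by the TMM test on the same counts, so their separation in CPM is no further support for a change. Among all members, 62 have CPM groups that do not overlap, and no share over all genes is given.

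A second set was called lower on the spike-in scale only. LINC01224, an RNA of 8 exons next to the zinc finger gene ZNF91, had 1031, 1059 and 819 normalized counts in shControl and 605, 481 and 548 in shDYRK1A. It fell by 0.83 ± 0.16 on the log2 scale, and by 0.44 ± 0.06 with TMM scaling, which passed the test but not the fold threshold (adjusted p 1.25e-06 and 9.56e-05). LINC01551 had 363, 352 and 258 normalized counts in shControl and 204, 145 and 205 in shDYRK1A. Its log2FC was -0.81 ± 0.19 and -0.41 ± 0.12 (adjusted p 0.000112 and 0.0105).

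LINC00638 (133, 128 and 98.3 normalized counts in shControl, 58.6, 63.9 and 65.9 in shDYRK1A), LINC01914 (105, 118 and 68.2, then 58.6, 49.1 and 46.9) and LINC00630 (158, 143 and 153, then 88.8, 63.9 and 101) also fell in both fits. Their groups did not overlap on the spike-in scale, with log2FC of -0.92, -0.90 and -0.83, and the TMM values were -0.53, -0.51 and -0.45 (adjusted p 0.0176, 0.0372 and 0.0371). The TMM test was lost without shDYRK1A 1A for all 3, also without shControl 1A for LINC01914 and LINC00630, without shControl 1B or shDYRK1A 1C for LINC01914, and without shControl 1C or shDYRK1A 1B for LINC00630, with adjusted p of up to 0.0706, 0.160 and 0.166. LINC01638 and LINC01238, which both met the bar through shControl, were called on the spike-in scale (log2FC -0.94 ± 0.27 and -0.88 ± 0.26) and did not pass with TMM scaling (adjusted p 0.0694 and 0.0848). The libraries of LINC01238 overlapped, since shControl 1C at 56.5 normalized counts was below shDYRK1A 1A at 63.3. Without shControl 1A, LINC01638 had an adjusted p of 0.0515, and without shDYRK1A 1B the log2FC of LINC00630 and LINC01551 was -0.67 and -0.66. In all, 10 of the 16 members called lower with the spike-in scale passed as lower with TMM scaling and 6 did not.

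The largest rises were LINC01144, LINC01011 and LINC01003, the 3 members higher in both fits. LINC01144 had 53.6, 59.0 and 53.5 normalized counts in shControl and 103, 80.6 and 88.1 in shDYRK1A. It rose by a log2FC of 0.71 ± 0.25 with spike-in and 1.09 ± 0.17 with TMM scaling (edgeR, adjusted p 0.0115 and 0.000133). This single-exon gene lies within the body of ZSWIM5 on the other strand and shares 7.66% of its exonic bases with genes on that strand. It was the only member called higher on the spike-in scale. Its log2FC there was 0.69 without shControl 1A (adjusted p 0.0503), and 0.68 without shControl 1C and 0.61 without shDYRK1A 1A, short of 0.7 (adjusted p 0.0217 and 0.0413).

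LINC01011 had 87.7, 70.4 and 89.6 normalized counts in shControl and 138, 143 and 118 in shDYRK1A, with log2FC of 0.68 ± 0.23 and 1.06 ± 0.18 (adjusted p 0.00766 and 0.000291). It overlaps NQO2, a quinone reductase gene, on the same strand, and 10.4% of its exonic bases are shared with other genes there, so its count is uncertain. NQO2 fell by 0.32 with spike-in scaling (adjusted p 0.0366) and had a TMM log2FC of 0.07 (adjusted p 0.266). LINC01003 had 65.7, 113 and 68.2 normalized counts in shControl and 119, 122 and 129 in shDYRK1A. The lowest depleted library was just above the highest control one, and its log2FC was 0.59 ± 0.23 and 0.98 ± 0.19 (adjusted p 0.0238 and 0.000879). On the spike-in scale LINC01011 did not pass without shControl 1B (adjusted p 0.0711), and LINC01003 did not pass without shControl 1A, shControl 1C, shDYRK1A 1B or shDYRK1A 1C (adjusted p 0.165, 0.0872, 0.0510 and 0.0989).

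The other 5 members called higher with TMM scaling did not pass on the spike-in scale. LINC00461, a brain-enriched transcript whose gene carries the microRNA gene MIR9-2, took 11.1, 11.8 and 9.97 CPM in shControl and 19.4, 18.7 and 18.3 CPM in shDYRK1A. This was the clearest separation among them, with a TMM log2FC of 0.74 ± 0.08 and a spike-in log2FC of 0.35 ± 0.16 (adjusted p 5.32e-06 and 0.0521). LINC00920 took 2.56, 2.87 and 2.26 CPM in shControl and 4.38, 4.54 and 4.28 CPM in shDYRK1A, with a TMM log2FC of 0.74 ± 0.14 (adjusted p 0.000648). LINC01270, the nearest of whose protein-coding neighbours is CEBPB at 100030 bases, took 4.56, 5.03 and 5.95 CPM in shControl and 9.44, 8.51 and 8.11 CPM in shDYRK1A, with a TMM log2FC of 0.71 ± 0.12 (adjusted p 0.000222).

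LINC01534 and LINC01535 both lie on chromosome 19 among zinc finger genes. LINC01534 took 1.49, 1.40 and 1.19 CPM in shControl and 2.71, 1.87 and 2.79 CPM in shDYRK1A, with a TMM log2FC of 0.82 ± 0.19 (adjusted p 0.00310). LINC01535 took 0.987, 1.07 and 0.728 CPM in shControl and 2.01, 1.57 and 1.56 CPM in shDYRK1A, with 0.85 ± 0.21 (adjusted p 0.00479). It met the bar through shDYRK1A, with means of 42.6 normalized counts in shControl and 58.2 in shDYRK1A. In the TMM fits without 1 library all 8 stayed past the test. The log2FC came under 0.7 without shControl 1C for LINC00461 (0.68), LINC00920 (0.66) and LINC01535 (0.699), and for LINC01270 without shControl 1A (0.63), shControl 1B (0.69) or shDYRK1A 1A (0.66).

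The mature sequences that arise from the hairpin within LINC00461 are shown, since miR-9 is the best known product of this gene in brain cells. Capitals mark the seed, bases 2 to 8 (RefSeq, GRCh38.p14).
hsa-miR-9-5p: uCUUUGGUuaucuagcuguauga
hsa-miR-9-3p: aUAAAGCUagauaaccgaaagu

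The libraries hold polyadenylated RNA and do not measure mature microRNAs, and MIR9-2 is 1 of several genes that give the same products. Hairpins also lie on the same strand within LINC00969 (MIR570) and LINC01138 (MIR5087). LINC00969 had 1351, 1320 and 978 normalized counts in shControl and 1029, 671 and 761 in shDYRK1A, and it fell by 0.57 ± 0.15 on the log2 spike-in scale (adjusted p 0.000732), with a TMM log2FC of -0.18 (adjusted p 0.101). LINC01138 had 553, 520 and 448, then 561, 422 and 439 normalized counts, which overlap, and rose only in the TMM fit (log2FC 0.29, adjusted p 0.00866). LINC00461 and LINC01138 thus passed as higher with TMM scaling only, and LINC00969 as lower with spike-in scaling only.

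None of the 8 most abundant members was called in either fit. LINC00667 had a mean of 1669 normalized counts, with 1964, 1842 and 1644 in shControl and 1701, 1328 and 1533 in shDYRK1A, and passed in neither fit (adjusted p 0.117 and 0.0649). LINC00094 (mean 1527) and LINC00511 (mean 1168) did not pass either. LINC01184 (mean 1196), LINC00963 (mean 1133) and LINC00665 (mean 1136) rose with TMM scaling only, with log2FC of 0.29, 0.27 and 0.43. LINC00998 (mean 1072) and LINC01116 (mean 1061) fell with spike-in scaling only, with log2FC of -0.37 and -0.40. Both lost the test without shControl 1A, shControl 1B or shDYRK1A 1C, and LINC00998 also without shDYRK1A 1B, with adjusted p of up to 0.152 and 0.145. Compared per kilobase of exon, LINC01116 had the highest level of all members with 595 normalized counts, LINC00998 had 566, and LINC01588 had the lowest with 4.47.

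LINC01278, LINC00493 and LINC00649 had the spike-in log2FC nearest to 0, at -0.00074 ± 0.15, 0.0018 ± 0.17 and -0.0038 ± 0.25. LINC01278 had 1119, 1106 and 932 normalized counts in shControl and 1198, 938 and 1019 in shDYRK1A, so its groups overlapped. With TMM scaling LINC01278 and LINC00493 rose, by a log2FC of 0.39 in each case, and LINC00649 did not pass (0.41, adjusted p 0.134). A spike-in value near 0 corresponds to a TMM value near 0.39, the shift between the scales.

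GENCODE v29 places the 116 genes in several classes, of which 73 are lincRNA, 15 other noncoding, 11 antisense, 9 pseudogene and 7 protein-coding, and 1 is not in that release. All 16 members called lower on the spike-in scale, and all 13 called with TMM scaling, are in the lincRNA class. Of those 73, 27 fell and 3 rose with spike-in scaling and 10 fell and 20 rose with TMM scaling, with medians of -0.26 and 0.13. None of the 11 antisense genes passed with spike-in scaling, where their values ran from -0.23 to 0.18, and 5 rose with TMM scaling. The classes differ in size and level, and the difference between them was not tested. The 7 now annotated as protein-coding include LINC00998 (SMIM30) and LINC00493 (SMIM26), which encode small membrane proteins. LINC00116 (MTLN), which encodes a mitochondrial microprotein, belongs there too. Of these 7, 2 fell with spike-in scaling and 2 rose with TMM scaling.

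Position relative to other genes was examined next. Protein-coding neighbours and start-site partners were sought only among the 23026 genes with a normalized signal. The gene body overlapped the nearest such neighbour for 22 members. These 22 had a median TMM log2FC of 0.32, and 11 rose, beside 32.8% of all members and 24.1% of all genes, and 0 fell. Exonic bases were shared with a gene on the same strand for 22 members, over 10% for 11 of them, and with a gene on the opposite strand for 38. The kit marks strand, but the strand setting of the counting is not given in the sources used here, so counts of these members are uncertain. Leaving out the same-strand group, the remaining members had medians of -0.21 and 0.18.

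A start site within 2000 bases of a protein-coding start on the opposite strand was found for 21 members, pairs that could share a promoter region. In 10 of these 21 pairs the member passed with TMM scaling and in 8 the coding gene did, where 25.2% of all genes fell and 24.1% rose, and in 2 both did. With spike-in scaling 5 members and 13 coding genes passed, where 55.0% of all genes fell, and in 3 pairs both did, each time as lower. The values that follow are on the TMM scale unless another is named. LINC01137 and ZC3H12A, which encodes an RNase of inflammatory messenger RNAs, both rose with TMM scaling, with log2FC of 0.40 and 0.82. On the spike-in scale the values were 0.0078 and 0.43, and only ZC3H12A passed (adjusted p 0.971 and 0.0126). LINC01137 took 8.18, 9.04 and 8.32 CPM in shControl and 11.4, 11.6 and 11.5 CPM in shDYRK1A, without overlap. LINC01184 and SLC12A2, the gene of a sodium, potassium and chloride cotransporter, moved apart with TMM scaling only, with log2FC of 0.29 ± 0.06 and -0.24 ± 0.06 (adjusted p 0.0013 and 0.00367). On the spike-in scale both values were negative, -0.10 and -0.63, and only SLC12A2 passed (adjusted p 0.567 and 0.000126). LINC01184 took 27.2, 27.2 and 27.5 CPM in shControl and 36.3, 33.7 and 32.4 CPM in shDYRK1A.

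LINC00235 fell while CAPN15, the calpain gene 310 bases from its start, had a log2FC of 0.02 (adjusted p 0.818), though on the spike-in scale CAPN15 fell as well, by 0.37 (adjusted p 0.0223). LINC01534 rose while the value of ZNF567, 163 bases away, was -0.23 (adjusted p 0.0641), and -0.61 on the spike-in scale (adjusted p 0.0020). LINC01024, LINC01481, LINC00476, LINC01004, LINC01547 and LINC00909 rose with TMM scaling, and their partners PURA, CNOT2, ERCC6L2, KMT2E, FAM207A and ZNF407 had values between -0.14 and 0.12 that did not pass. The TMM test was lost for LINC01024 without shControl 1A, shControl 1B or shDYRK1A 1A, for LINC01481 without shControl 1C or shDYRK1A 1A, and for LINC01547 without shControl 1B or shDYRK1A 1C (adjusted p of up to 0.142, 0.0941 and 0.0934). With spike-in scaling none of these members passed. Of their partners, CNOT2, ERCC6L2, KMT2E and ZNF407 then passed as lower, and PURA and FAM207A did not pass. The converse was seen for LINC00894, LINC01089, LINC01125, LINC01134, LINC00205 and LINC01521, whose partners CXorf40B, SETD1B, ACTR1B, C1orf174, POFUT2 and PATZ1 passed while they did not. SETD1B, a histone methyltransferase gene, and C1orf174 were lower and the other 4 partners higher. With spike-in scaling SETD1B and C1orf174 were lower too, but LINC00205 and LINC01521 fell (adjusted p 0.00944 and 0.0374) while POFUT2 and PATZ1 did not pass. LINC00205 lost that test without shControl 1B or shDYRK1A 1C (adjusted p of up to 0.0720). LINC01521 lost it without shControl 1A, shControl 1B, shDYRK1A 1A or shDYRK1A 1B (adjusted p of up to 0.164). CXorf40A and CXorf40B are near-identical copies, so reads of these genes, and of LINC00893 and LINC00894 beside them, could be split between the copies. In the last 5 pairs (LINC00893 with CXorf40A, LINC00649 with ATP5O, LINC00941 with CAPRIN2, LINC01560 with ZNF41 and LINC00982 with PRDM16) neither gene passed. On the spike-in scale LINC00941 with CAPRIN2 and LINC01560 with ZNF41 fell together, but both members lost the test without shControl 1B or shDYRK1A 1C, and LINC00941 also without shControl 1A or shDYRK1A 1B (adjusted p of up to 0.168 for LINC00941 and 0.0557 for LINC01560). Across the 21 pairs Pearson's r of the 2 TMM log2FC was 0.04 and Spearman's rho -0.03, and 11 of 21 had the same sign; all values come from the same libraries.

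**Figure D5:**
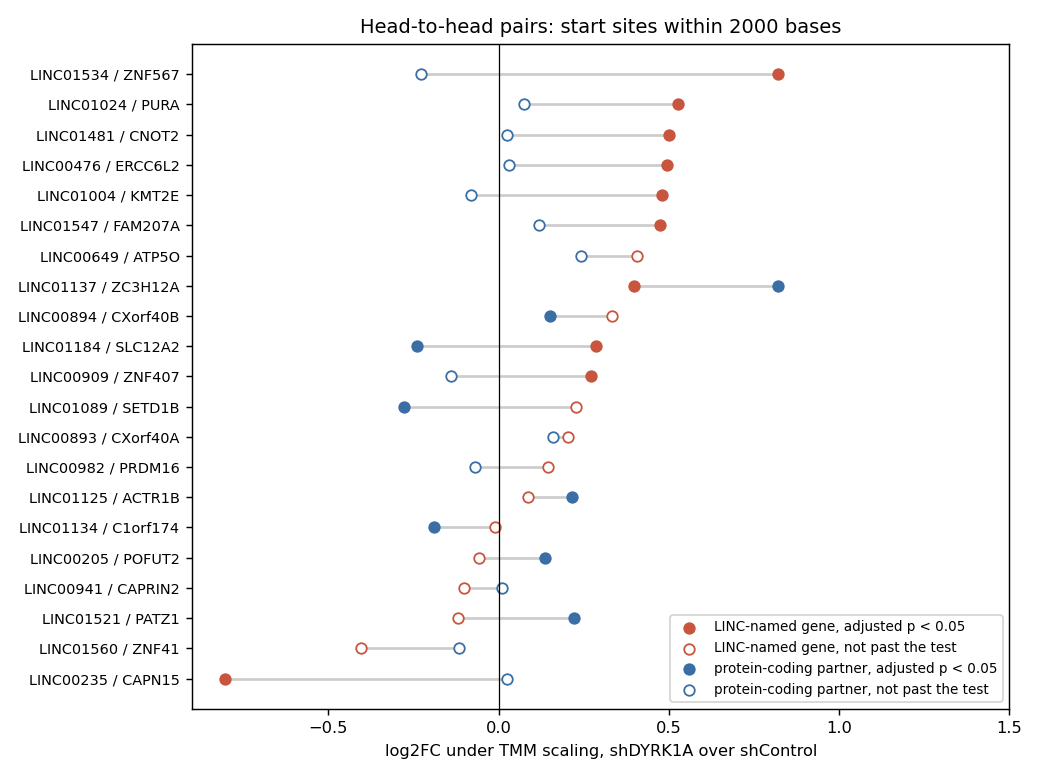
TMM log2FC of the 21 LINC-named genes (red) and of the protein-coding genes that start within 2000 bases on the opposite strand (blue), 1 pair per line; filled points passed an adjusted p of 0.05 and open points did not. Both genes are filled in 2 pairs, LINC01137 with ZC3H12A, which lie on the same side of 0, and LINC01184 with SLC12A2, which lie on opposite sides.

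The machinery that degrades noncoding RNA in the nucleus was listed without regard to its values, as 28 genes of the exosome, its adaptors and related factors. On the spike-in scale 25 of 28 fell and 0 rose, with a median log2FC of -0.51, where 55.0% of all genes fell and 1.72% rose with a median of -0.39. With TMM scaling 13 fell and 1 rose, with a median of -0.13, where 25.2% of all genes fell and 24.1% rose. The lowest was C1D, an exosome cofactor, with 797 ± 134 (SD, n = 3) normalized counts in shControl, 305 ± 74.0 after depletion and a spike-in log2FC of -1.39 ± 0.16. EXOSC8, a subunit of the exosome ring, had -1.38 ± 0.14 on that scale. The highest on both scales was ZC3H3, with a spike-in log2FC of -0.09 ± 0.15 (adjusted p 0.611) and a TMM log2FC of 0.30 ± 0.06. Whether these values bear on those of the LINC-named RNAs was not tested.

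At the bar itself the values were close. Just inside were LINC01529, LINC01535 and LINC00982, with means of 50.2, 50.4 and 50.7 normalized counts. Just outside were LINC01391, LINC00310 and LINC01094, with means of 48.4, 48.3 and 47.3. With a bar of 100, 74 members would remain, and 20 fell and 2 rose with spike-in scaling and 6 fell and 29 rose with TMM scaling.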

How the data were processed

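RNA from 6 T98G libraries, 3 shControl and 3 shDYRK1A, was compared, grouped as their titles say. The authors deposited raw counts per gene for each library (58174 human gene identifiers, stranded mRNA libraries; STAR and the hg38 and dm3 builds per the submitters' processing notes, versions and annotation not given in the sources used here). They also deposited a normalized signal for 23026 genes, which equals the raw counts divided by 1 constant per library within 0.01 for 100% of values, a constant the study's methods derive from fly reads. A deposited table of the authors' own DESeq2 comparison, with fold changes and p-values, was not used. Summary lines that name no gene were kept out: unmapped reads were 8.44% to 15.6%, multimapping 2.26% to 2.49%, outside features 3.66% to 4.81% and ambiguous 3.42% to 3.59% of each library. The number of per-sample columns matching no sample was 0.

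Genes with a mean of at least 50 normalized counts over the 6 libraries (13465) were tested on raw counts with edgeR 4.0.16 (glmQLFit robust, glmQLFTest; R 4.3.3), using the constants above (spike-in scaling) or TMM factors over the human genes. Benjamini-Hochberg adjustment covered the 13465 genes, and calls needed an adjusted p below 0.05 with a log2FC beyond 0.7 in either direction. The study's filter of 10 CPM keeps 30 of the 116 members and was an alternative. Standard errors are the fold change over the square root of the F statistic. Exons, classes and neighbours came from GENCODE v29 (GRCh38), in which the coordinates of 107 of the 116 members equal those in the table, and start regions from RefSeq, matched by symbol or older symbol (23 of 75 by an older one). Other alternatives were median-of-ratios scaling, the Wald test of DESeq2 1.42.0, other filters, a block for the replicate letter, fits without each library, a bar of 100, and members free of same-strand exon overlap. Steps were tested on simulated data.

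The members, lists and tests were chosen with earlier results of these data known. Named are members called in either fit (at most 12 per fit and direction, by size of log2FC), the 8 most abundant, the 3 nearest to 0 in the spike-in fit, those beside the bar, protein-coding genes in a start-site pair and their members, hosts of a microRNA hairpin, DYRK1A, and the lowest and highest exosome gene. EXOSC8, LINC01588, the nearest genes of called members and members now annotated as protein-coding were named after their values were seen.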

Additional observations from a re-analysis of the deposited data

How the results depend on the processing

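The scaling decided most of the counts. With TMM in place of spike-in scaling, 11 members were lower and 38 higher, 5 were called lower and 8 higher, and the median log2FC turned from -0.18 to 0.20; median-of-ratios scaling gave 11, 39, 5, 8 and 0.21. The cause was not tested. Under the 10 CPM filter, which keeps 30 members, the spike-in fit had 11 lower, 0 higher, 2 called lower and 0 called higher, and the TMM fit 3, 15, 1 and 1. With a bar of 100 (74 members) the spike-in counts were 20 lower, 6 called lower and 0 called higher. The TMM counts were 6 lower, 2 called lower and 5 called higher. Both alternatives test fewer members and drop those of low level, where spike-in calls downward were most common. Such calls made up 23.8%, 10.3% and 5.71% of members with means of 50 to 100, 100 to 300 and 300 to 2000. Of all genes in these ranges they made up 17.2%, 15.6% and 15.3%. Of the 16 members so called, 7 were selected through the shControl group alone. The higher share at low level is therefore no support for a change of such members.

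Leaving out each library in turn, the spike-in fit gave 18 to 39 lower, 1 to 4 higher, 11 to 20 called lower and 0 to 2 called higher members, with medians of -0.29 to -0.10. The 1 called higher became 0 without shDYRK1A 1A and 2 without shControl 1B or shDYRK1A 1C. The median was -0.11 without shControl 1B, -0.10 without shDYRK1A 1B and -0.29 without shDYRK1A 1A. The TMM fit gave 9 to 11 lower, 30 to 40 higher, 4 to 6 called lower and 7 to 9 called higher, with medians of 0.17 to 0.23.

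DESeq2, the filter at a mean of 10, filterByExpr and the members free of same-strand overlap kept all 10 of these counts and medians within 1.5 times or in direction. Of all 116 members, 46 were negative with spike-in and positive with TMM scaling. Among the 33 members named for a call, their level or a value near 0 or the bar, 9 turned from negative to positive with TMM and with median-of-ratios scaling alike: LINC00094 (0.12), LINC00511 (0.14), LINC00649 (0.41), LINC00667 (0.13), LINC00963 (0.27), LINC00982 (0.14 and 0.15), LINC00998 (0.021 and 0.023), LINC01184 (0.29) and LINC01278 (0.39). Those near 0 also turned when single libraries were left out: LINC00493 (-0.10 to 0.10), LINC00649 (-0.29 to 0.16), LINC00665 (-0.064 to 0.17), LINC01278 (-0.10 to 0.075) and LINC01529 (-0.29 to 0.31). None of these passed the test there.

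The labels do not say whether the replicate letters pair the samples. The deviations of same-letter libraries correlated weakly, at 0.17, 0.02 and 0.11. Each shDYRK1A library still correlated best with the shControl library of its own letter, though shControl 1B correlated best with shDYRK1A 1C (0.09). Whether the samples are paired is therefore undecided, and no pairing was used in the main fits. With the letter as a block, the spike-in fit had 31 lower, 3 higher, 16 called lower and 1 called higher, and the TMM fit 15, 40, 5 and 8, with medians of -0.17 and 0.22. LINC00649 was 0.036 with the block. Depth limits the lowest members, where 1 library can hold under 30 raw counts.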
